A study of Mus musculus with 12 samples.

Results

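S100 proteins are small EF-hand calcium sensors. The 10 S100 genes described here are S100a1, S100a4, S100a6, S100a8, S100a9, S100a10, S100a11, S100a13, S100a14 and S100a16, out of 19937 genes that had a probe set with a single gene symbol. They were taken by symbol, with the brightest probe set of a gene standing for it, from a list of the family drawn up with earlier results of these data known. All 10 had a probe set, and only S100a11 had more than 1.

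Expression was measured in stable lines of 4T1, a mouse mammary epithelial carcinoma line of BALB/cfC3H background, on Affymetrix Mouse Gene 1.0 ST arrays. The 4 lines, with 3 arrays each, are FL, ΔSAP and mutB1, named for constructs of the actin-regulated transcription coactivator Mkl1 (now Mrtfa), and control. FL is read as the full-length protein, ΔSAP as a form without the SAP domain and mutB1 as a form mutated in the B1 region, which is known for binding serum response factor. All cultures were kept in 0.03% serum for 48 h before RNA was taken. The sources used here do not give what the control line carries, the promoter behind each construct, or whether a line is a clone or a pool. With 1 line per construct, the construct and the line cannot be told apart, and each p-value rests on the spread between cultures of a line. In whole-culture RNA, fewer cells that express a gene and less RNA per cell cannot be told apart.

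An S100 protein usually forms a dimer that opens a binding face when calcium rises and then docks on partners such as annexins, myosin or p53. Several are also released from cells, and outside the cell they act through receptors such as RAGE (Ager) and the Toll-like receptor Tlr4. In mammary carcinoma models S100a4 is known for its link to metastasis, while S100a8 and S100a9 are known as the subunits of calprotectin, which neutrophils and monocytes release during inflammation and which tumours are known to produce as well.

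Values are log2 expression, so a difference of 1 is a doubling, and levels of different genes are not compared because probes differ in brightness. Array medians lay between 6.35 and 6.45, and a line mean under 6.35 counts as low, because such a signal may be background. This limit was set with the values known. The epithelial keratin Krt8 averaged 12.93 in FL, 13.12 in ΔSAP, 13.10 in mutB1 and 13.20 in control. Krt8 is 1 of 8 epithelial markers read below and does not show the lines to be alike. In mutB1 against control 5 of the 8 were lower and 0 higher, with the keratin Krt7 at -2.38. A change was called at a limma adjusted p of at most 0.01 over all 34760 probe sets. Arrays of the same line correlated at 0.995 to 0.997 and arrays of different lines at 0.988 to 0.995. The Mrtfa probe set averaged 12.08 ± 0.06 in FL, 11.92 ± 0.04 in ΔSAP, 11.29 ± 0.11 in mutB1 and 9.27 ± 0.01 in control (SD, n = 3 each), so every construct line was above control, and mutB1 was below FL by 0.79 (SE 0.06, limma adjusted p = 2.79e-06).

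All members lie on mouse chromosome 3. The RefSeq promoter table of build GRCm38.p6 held windows for 8 of the 10 members, from 250 bases before to 50 bases after a start site. The first 260 bases of 4 windows are shown because the results turn on these genes: the neighbours S100a8 and S100a9, of which only S100a8 was called, then S100a4 and S100a16. They are chr3:90668821-90669080 on the plus strand, chr3:90695712-90695971 on the minus strand, chr3:90603520-90603779 on the plus strand and chr3:90537004-90537263 on the plus strand, each written 5′ to 3′ on the gene's strand. Capitals mark matches of the motifs named after the sequences.
S100a8: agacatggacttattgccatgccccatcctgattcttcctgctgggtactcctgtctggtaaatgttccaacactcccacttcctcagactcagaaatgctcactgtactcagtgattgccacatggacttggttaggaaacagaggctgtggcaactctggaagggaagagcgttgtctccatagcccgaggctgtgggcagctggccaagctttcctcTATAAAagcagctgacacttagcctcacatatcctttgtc
S100a9: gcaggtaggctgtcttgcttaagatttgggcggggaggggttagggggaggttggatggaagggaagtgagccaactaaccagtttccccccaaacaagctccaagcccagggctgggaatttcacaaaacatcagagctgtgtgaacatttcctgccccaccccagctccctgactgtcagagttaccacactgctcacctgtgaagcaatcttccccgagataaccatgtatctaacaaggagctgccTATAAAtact
S100a4: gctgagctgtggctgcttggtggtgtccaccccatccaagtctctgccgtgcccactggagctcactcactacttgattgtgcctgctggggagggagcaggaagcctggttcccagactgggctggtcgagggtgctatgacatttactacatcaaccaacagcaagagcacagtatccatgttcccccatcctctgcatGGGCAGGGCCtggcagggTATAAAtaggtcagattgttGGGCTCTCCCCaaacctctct
S100a16: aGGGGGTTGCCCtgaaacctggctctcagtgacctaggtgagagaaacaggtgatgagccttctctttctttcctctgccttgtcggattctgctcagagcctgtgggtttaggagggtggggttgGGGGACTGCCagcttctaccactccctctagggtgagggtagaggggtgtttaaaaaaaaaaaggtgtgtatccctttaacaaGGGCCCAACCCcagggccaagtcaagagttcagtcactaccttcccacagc

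Motifs were searched on both strands over the whole windows: the CArG box of serum response factor, TGANTCA of AP-1, GGAATG of TEAD factors, a loose NF-kB pattern of GGG and CC set apart by 5 bases of any kind, and TATAAA, which was added after the windows had been seen. The CArG box was in 1.64% of 32544 windows of 300 bases, TGANTCA in 7.79%, GGAATG in 14.6%, the NF-kB pattern in 51.0% and TATAAA in 13.6%. No member window held a CArG box or GGAATG, and TGANTCA was in the window of S100a11 and in the second window of S100a16, neither of which is shown. The NF-kB pattern matched in 6 members, including S100a4 and S100a16, where matches on opposite strands overlap and read as one run of capitals. In S100a8 and S100a9 the capitals are TATAAA alone, at positions -30 to -25 in S100a8 and 1 to 6 in S100a9, counted from the first transcribed base as 1. S100a4 held TATAAA at -31 to -26. These matches describe letters in a window and say nothing of binding.

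**Figure D1:**
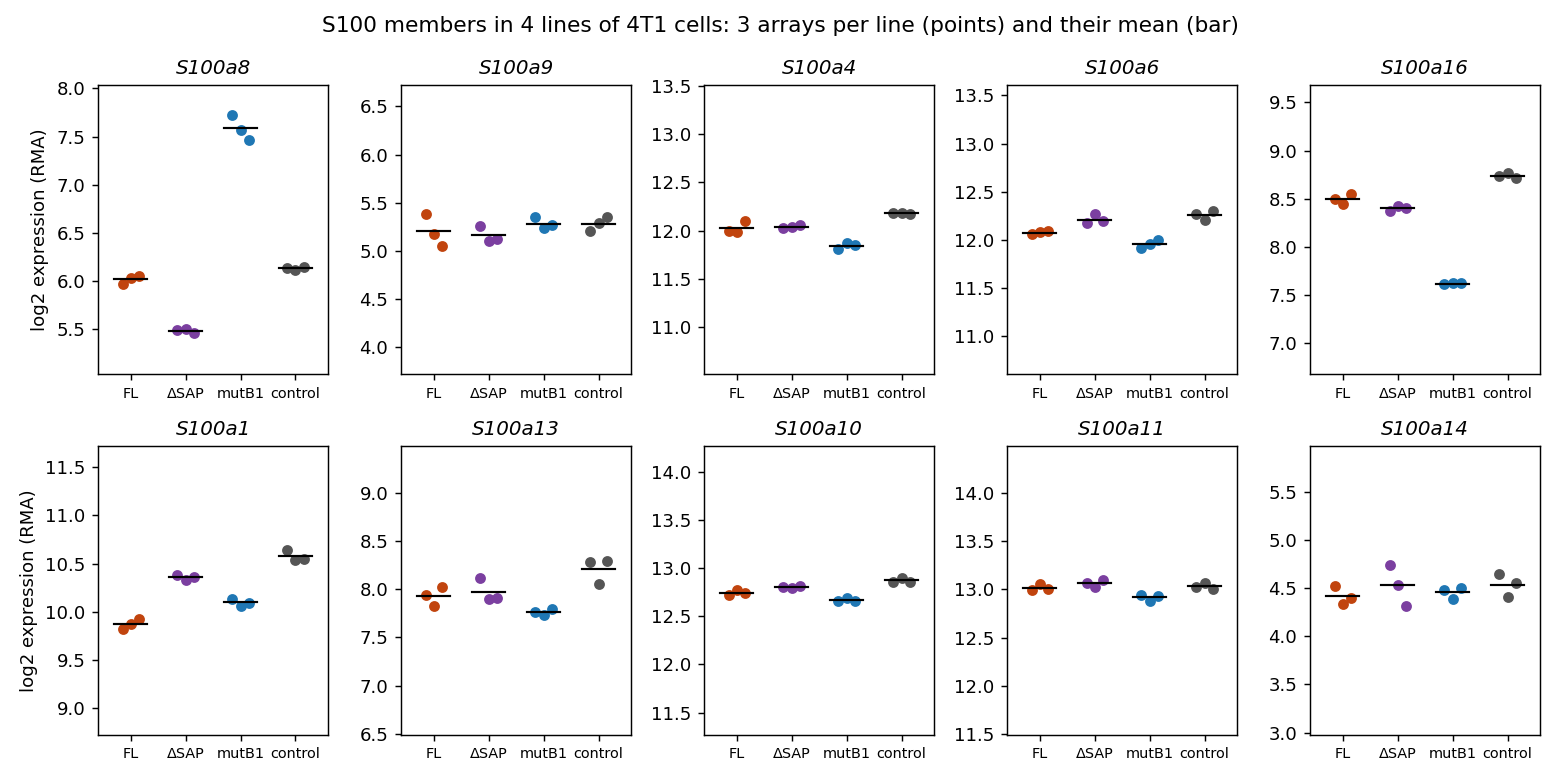
Log2 expression of the 10 S100 genes on each array (y axis, 3 log2 units tall in every panel), by line in the order FL, ΔSAP, mutB1 and control (x axis). Points are single arrays and bars the mean of 3. S100a8 stands apart in mutB1, at 7.46 to 7.73, and S100a16 is lowest there, at 7.61 to 7.63, while the lines overlap for S100a9 and S100a14.

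S100a8, a calprotectin subunit, was higher in mutB1 than in any other line, and in every pair but FL against control its difference was the widest of the 10 genes. It read 5.97, 6.03 and 6.06 in the FL arrays, 5.50, 5.50 and 5.46 in the ΔSAP arrays, 7.73, 7.57 and 7.46 in the mutB1 arrays, and 6.14, 6.11 and 6.14 in the control arrays. No mutB1 array overlapped another line, and the FL, ΔSAP and control means were low. S100a8 was 1.45 higher in mutB1 than in control (SE 0.06, 2.74-fold, limma adjusted p = 5.57e-08). It was lower in FL than in mutB1 (-1.57, SE 0.06, 2.96-fold, limma adjusted p = 3.44e-08). Because the compared means were low, these folds may understate the true ones. ΔSAP held the least S100a8. It differed from mutB1 by -2.10 (SE 0.06, 4.28-fold, limma adjusted p = 4.07e-09) and from control by -0.65 (SE 0.06, 1.56-fold, limma adjusted p = 2.52e-05), and FL exceeded ΔSAP by 0.53 (SE 0.06, limma adjusted p = 0.000166). Both sides of the ΔSAP against control and FL against ΔSAP comparisons were low, so these are differences in measured signal. The FL against control difference of -0.11 (95% interval -0.25 to 0.02) was not called (limma adjusted p = 0.217). All 5 called differences of S100a8 stayed called under each of 21 alternatives, but not all of these could move them. Averaging the probe sets of a gene repeats the main values for every member but S100a11. Leaving out an array of neither line of a pair keeps the difference as it is. S100a8 passed the minimum mean of 6 at 6.31 over the 12 arrays, with mutB1 alone at 7.59.

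S100a9, the other calprotectin subunit, was not called in any pair of lines. Its arrays read 5.38, 5.18 and 5.06 in FL, 5.26, 5.10 and 5.12 in ΔSAP, 5.35, 5.23 and 5.27 in mutB1, and 5.21, 5.29 and 5.35 in control. Every line overlapped every other and every mean was low. The mutB1 against control difference was -0.00 with a 95% interval of -0.18 to 0.18 (limma adjusted p = 0.999), an interval that leaves out a change of the size seen for S100a8. The smallest adjusted p of S100a9 over the 6 pairs was 0.325, for ΔSAP against mutB1. With every mean low, the interval refers to measured signal and not to transcript number. The RefSeq table places S100a8 and S100a9 next to each other.

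S100a8 and S100a9 are abundant in neutrophils and monocytes, so 22 leukocyte markers were read beside them. In mutB1 against control 0 of 22 were called by limma, where 12.7% of all probe sets were called, and 4 of 22 had an unadjusted p under 0.05. The list averaged 5.29 to 5.35 per array in FL, 5.23 to 5.31 in ΔSAP, 5.30 to 5.35 in mutB1 and 5.31 to 5.36 in control. Of the 22 markers, 19 were low in FL, 19 in ΔSAP, 20 in mutB1 and 19 in control. A change in such low signal could go unseen. The common leukocyte antigen Ptprc averaged 4.55 in FL, 4.52 in ΔSAP, 4.70 in mutB1 and 4.65 in control, and the neutrophil antigen Ly6g 4.47, 4.28, 4.65 and 4.26 in the same order, all under the lowest array median. In FL against mutB1, Cd68, a lysosomal protein of macrophages and other cells, was higher (1.05, limma adjusted p = 2.63e-05) and Cd14, a co-receptor for Tlr4, lower (-0.36, limma adjusted p = 0.00193). ΔSAP against mutB1 gave the same calls, Cd68 at 0.80 and Cd14 at -0.43 (limma adjusted p = 0.000213 and 0.000687). Cd68 was also higher in FL than in control (0.67, limma adjusted p = 0.000489). Ltf, low in every line, was lower in ΔSAP than in control (-0.48, limma adjusted p = 0.00123). No marker was called in FL against ΔSAP.

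Genes that follow S100a8 over the 12 arrays were ranked by Pearson's r among 900 genes whose line means spread by at least 1. The 5 nearest were Angpt1 (r = 0.987), Tlcd2 (0.986), Cemip (0.985), Fam131b (0.984) and Galm (0.982). These values describe likeness over arrays that fall into 4 lines and carry no p. For S100a9 the nearest of the ranked genes reached only 0.609 (1700024J04Rik) and 0.600 (Synpo).

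S100a4, which binds non-muscle myosin and is known from metastasis models, was lowest in mutB1, by a small amount. It read 11.997, 11.99 and 12.10 in FL, 12.03, 12.04 and 12.06 in ΔSAP, 11.81, 11.87 and 11.85 in mutB1, and 12.18, 12.19 and 12.17 in control. The mutB1 arrays lay under every other array and the control arrays over every other, while FL and ΔSAP overlapped. The mutB1 line was below control (-0.34, SE 0.04, 1.26-fold, limma adjusted p = 0.000133), called under each of 21 alternatives. FL exceeded mutB1 by 0.18 (SE 0.04, 1.14-fold, limma adjusted p = 0.00492) and ΔSAP exceeded mutB1 by 0.20 (SE 0.04, limma adjusted p = 0.00418). The differences from control of FL (-0.15, 95% interval -0.24 to -0.07, adjusted p = 0.0136) and ΔSAP (-0.14, 95% interval -0.23 to -0.05, adjusted p = 0.0243) were not called, and FL against ΔSAP gave -0.01 (95% interval -0.10 to 0.08). The FL against mutB1 call was lost without FL array 1 (adjusted p = 0.0105), FL 3 (0.0144), mutB1 1 (0.0219), mutB1 2 (0.0104) or mutB1 3 (0.0169). It was also lost after median centring (0.0670) and with only the 6 arrays of the pair (0.0418). FL against control became a call without FL 3 (0.00333), with further quantile normalization (0.00268), a mean of at least 6 (0.00393) or the eBayes trend (0.00146). ΔSAP against control became a call with further quantile normalization (0.00648), a mean of at least 6 (0.00749) or the eBayes trend (0.00318). The ΔSAP against mutB1 call was lost without mutB1 1 (0.0189), mutB1 3 (0.0150), ΔSAP 1 (0.0110), ΔSAP 2 (0.0144) or ΔSAP 3 (0.0184). Median centring (0.0225) and a fit of only the 6 arrays of the pair (0.0228) lost it as well.

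S100a4 is also known as a fibroblast protein, so 8 fibroblast and 8 epithelial markers were read beside it. The fibroblast list averaged 6.72 to 6.81 per array in FL, 6.64 to 6.79 in ΔSAP, 7.62 to 7.67 in mutB1 and 6.84 to 6.97 in control. In mutB1 against control 2 of the 8 fibroblast markers were higher and 0 lower, the PDGF receptor Pdgfrb (3.45, SE 0.10, limma adjusted p = 3.9e-09) and the matrix protein Fbln1 (2.61, SE 0.05, limma adjusted p = 2.51e-10). The epithelial list averaged 9.49 to 9.54 in FL, 9.87 to 9.90 in ΔSAP, 8.30 to 8.39 in mutB1 and 9.31 to 9.39 in control. In mutB1 against control 5 of the 8 epithelial markers were lower (6.89% of all probe sets) and 0 higher (5.83%). Among them were the adhesion proteins Epcam (-2.03) and Cdh1 (-1.58) and the keratins Krt7 (-2.38) and Krt19 (-1.63). In mutB1 against control the median difference over the 8 fibroblast markers was -0.02, so Pdgfrb and Fbln1 alone set their list mean apart there. It was -0.89 over the epithelial markers. In the same pair S100a8 was higher and S100a4 and S100a16 lower. The markers' part in these results was not tested. The genes nearest to S100a4 over the 12 arrays, among 901 candidates, were Tnik (r = 0.972), Bmp7 (0.970), Cryl1 (0.961), Arg2 (0.959) and Ncoa1 (0.957).

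**Figure D2:**
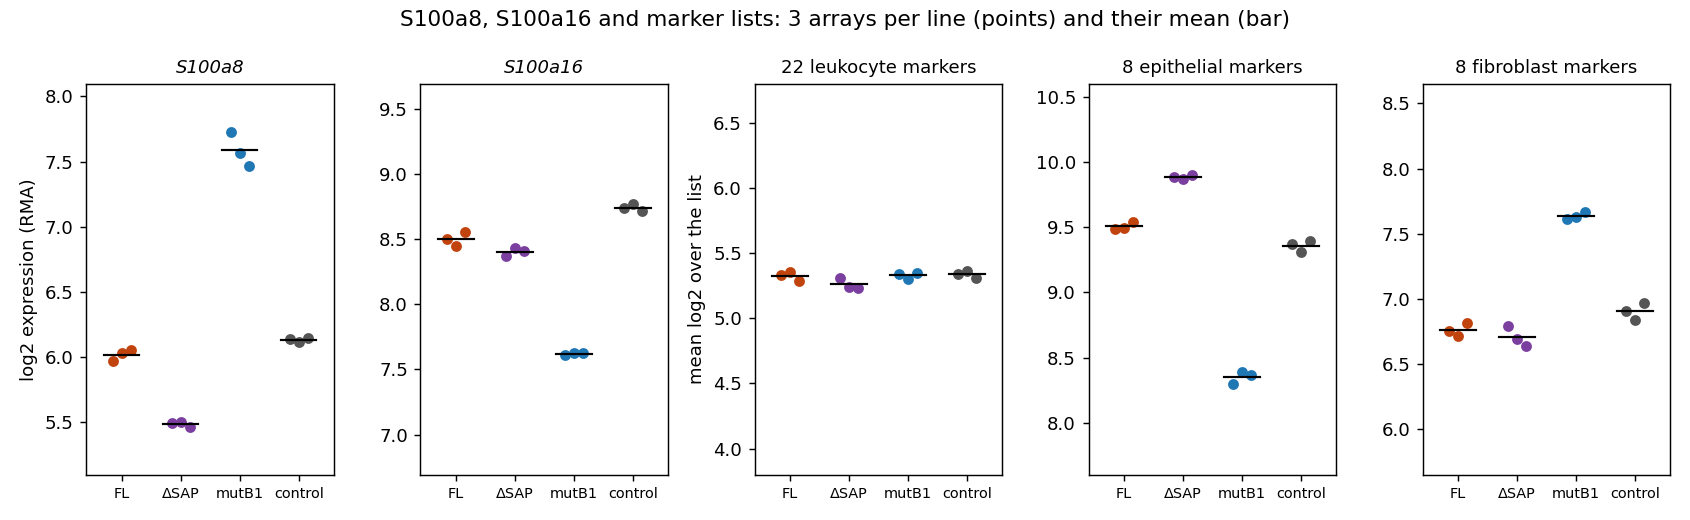
Log2 expression of S100a8 and S100a16 and mean log2 value of 3 marker lists on each array (y axis) for the lines in the order FL, ΔSAP, mutB1 and control (x axis), with points as single arrays and bars as means. Leukocyte markers stay between 5.23 and 5.36 in every line. In mutB1 the mean of the fibroblast list is highest and that of the epithelial list lowest. Pdgfrb and Fbln1 are the called fibroblast markers of mutB1 against control, and Pdgfra joins them in FL against mutB1 and ΔSAP against mutB1.

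S100a6, or calcyclin, which binds Cacybp and annexins, was also lowest in mutB1. It read 12.06, 12.08 and 12.09 in FL, 12.17, 12.27 and 12.19 in ΔSAP, 11.91, 11.96 and 11.9995 in mutB1, and 12.27, 12.21 and 12.30 in control. ΔSAP and control arrays overlapped, and FL lay between them and mutB1. The mutB1 line was below control (-0.30, SE 0.04, limma adjusted p = 0.000447) and ΔSAP was above mutB1 by 0.25 (SE 0.04, limma adjusted p = 0.00121). FL was below control (-0.18, SE 0.04, limma adjusted p = 0.00705). That call was lost without FL array 1 (0.0291), FL 2 (0.0233), FL 3 (0.0173), mutB1 2 (0.0119), ΔSAP 3 (0.0112), control 1 (0.0277) or control 3 (0.0326), after median centring (0.0141) and with only the 6 arrays of the pair (0.0245). The ΔSAP against mutB1 call was lost after median centring (0.0153) and with only 6 arrays (0.0180). FL against ΔSAP gave -0.14 (95% interval -0.23 to -0.04, adjusted p = 0.0464), which was not called. Nor was FL against mutB1, at 0.12 (95% interval 0.03 to 0.21, adjusted p = 0.0618).

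S100a16, a widely expressed member, had the widest drop of the 10 genes in mutB1 against control. It read 8.50, 8.45 and 8.55 in FL, 8.37, 8.43 and 8.41 in ΔSAP, 7.61, 7.62 and 7.63 in mutB1, and 8.74, 8.77 and 8.71 in control. No pair of lines overlapped, and the 3 mutB1 arrays had an SD of 0.01. S100a16 was below control in FL (-0.24, SE 0.04, limma adjusted p = 0.000586), in ΔSAP (-0.34, SE 0.04, limma adjusted p = 8.78e-05) and most in mutB1 (-1.12, SE 0.04, 2.17-fold, limma adjusted p = 1.14e-08). The FL against control call was lost with only the 6 arrays of the pair (adjusted p = 0.0110). It was higher than in mutB1 by 0.88 in FL (SE 0.04, 1.84-fold, limma adjusted p = 7.55e-08) and by 0.78 in ΔSAP (SE 0.04, limma adjusted p = 1.73e-07). FL against ΔSAP, at 0.10 (95% interval 0.01 to 0.18, adjusted p = 0.114), was not called.

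S100a1, a regulator of calcium handling in muscle, was lowest in FL and not in mutB1. It read 9.82, 9.87 and 9.93 in FL, 10.38, 10.33 and 10.37 in ΔSAP, 10.14, 10.06 and 10.09 in mutB1, and 10.64, 10.54 and 10.55 in control. No 2 lines overlapped, and all 6 differences were called. The order from the highest was control, ΔSAP, mutB1 and FL. FL was below control (-0.70, SE 0.04, 1.63-fold, limma adjusted p = 8.74e-07), below ΔSAP (-0.49, SE 0.04, limma adjusted p = 3.96e-05) and below mutB1 (-0.23, SE 0.04, limma adjusted p = 0.00308). The mutB1 line was below control (-0.48, SE 0.04, limma adjusted p = 2.58e-05), and ΔSAP was below control (-0.21, SE 0.04, limma adjusted p = 0.00502) and above mutB1 (0.26, SE 0.04, limma adjusted p = 0.00138). The FL against mutB1 call was lost without FL array 1 (0.0159), FL 2 (0.0127), mutB1 1 (0.0149) or mutB1 3 (0.0119). The ΔSAP against control call was lost without ΔSAP 1 (0.0114), ΔSAP 2 (0.0223), ΔSAP 3 (0.0170), control 1 (0.0232) or control 3 (0.0125). Fitting only the 6 arrays of the pair lost the calls of FL against mutB1 (0.0193), ΔSAP against control (0.0284) and ΔSAP against mutB1 (0.0104).

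S100a13, which helps export Fgf1 and Il1a from cells, starts 105 bases from S100a1 on the opposite strand, so the stretch between the start sites belongs to both windows. It is shown with the 9 bases past each start, and capitals mark matches of the same NF-kB pattern (chr3:90514321-90514444, plus strand, the strand of S100a13).
S100a1 and S100a13: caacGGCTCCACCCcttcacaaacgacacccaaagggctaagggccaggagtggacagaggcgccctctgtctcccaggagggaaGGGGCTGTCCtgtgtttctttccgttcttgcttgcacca

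S100a13 did not follow the order of S100a1. It read 7.94, 7.83 and 8.03 in FL, 8.12, 7.90 and 7.91 in ΔSAP, 7.77, 7.73 and 7.79 in mutB1, and 8.29, 8.06 and 8.29 in control. FL overlapped ΔSAP, and ΔSAP overlapped control, while mutB1 lay under all other lines. Only mutB1 against control was called, at -0.45 (SE 0.08, 1.36-fold, limma adjusted p = 0.00283), and that call was lost without mutB1 array 1 (0.0113), mutB1 2 (0.0131), control 1 (0.0143) or control 3 (0.0145). That call was also lost with only the 6 arrays of the pair (0.0124). FL against control gave -0.28 (95% interval -0.46 to -0.10, adjusted p = 0.026), which became a call without control array 2 (0.00683). Where S100a1 differed between FL and ΔSAP by -0.49, S100a13 differed by -0.04 (95% interval -0.22 to 0.14). Its cargo moved more widely than S100a13 itself. Fgf1 averaged 7.22 ± 0.13 in FL, 6.93 ± 0.11 in ΔSAP, 9.12 ± 0.10 in mutB1 and 8.52 ± 0.07 in control (SD, n = 3 each), and Il1a averaged 8.47 ± 0.11, 8.68 ± 0.09, 5.34 ± 0.26 and 4.79 ± 0.10 in the same order. Against control, Fgf1 was lower in FL (-1.30, limma adjusted p = 8.49e-07) and ΔSAP (-1.59) and higher in mutB1 (0.61), while Il1a was higher in FL (3.69, limma adjusted p = 7.03e-09), ΔSAP (3.90) and mutB1 (0.55). The Il1a means of mutB1 and control were low.

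S100a10, which pairs with Anxa2 at the membrane, was high in every line and varied little. It read 12.72, 12.77 and 12.74 in FL, 12.80, 12.79 and 12.82 in ΔSAP, 12.66, 12.69 and 12.66 in mutB1, and 12.86, 12.89 and 12.86 in control. No lines overlapped, and mutB1 was below control (-0.20, SE 0.03, 1.15-fold, limma adjusted p = 0.000971). That call was lost with only the 6 arrays of the pair (adjusted p = 0.0164). ΔSAP exceeded mutB1 by 0.14 (SE 0.03, limma adjusted p = 0.00957), a call lost in each of the 12 refits that left out 1 array, at adjusted p from 0.0128 to 0.0356. Median centring (0.0600), further quantile normalization (0.0133), robust eBayes (0.0106) and the 6 arrays alone (0.0593) lost it too. FL against control (-0.13, adjusted p = 0.0127) was not called. It became a call with median centring (0.00959), further quantile normalization (0.00254), a mean of at least 4 (0.00871) or 6 (0.00245), or the eBayes trend (0.000176). Its partner Anxa2 was lower in FL than in control (-0.14, SE 0.03, limma adjusted p = 0.00713), and mutB1 against control gave -0.08 (adjusted p = 0.111).

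S100a11, which binds Anxa1 and other annexins, was not called in any pair. Its arrays read 12.997, 13.05 and 13.001 in FL, 13.06, 13.03 and 13.10 in ΔSAP, 12.95, 12.88 and 12.93 in mutB1, and 13.03, 13.07 and 13.002 in control. FL, ΔSAP and control overlapped with each other, and mutB1 lay under them, at -0.11 from control (95% interval -0.20 to -0.03, adjusted p = 0.0586). The smallest adjusted p was 0.017, for ΔSAP against mutB1 (0.14). Its second probe set gave no call either. S100a14, an epithelial member, lay between 4.32 and 4.74 on all 12 arrays, was low in every line, and was not called in any pair.

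**Figure D3:**
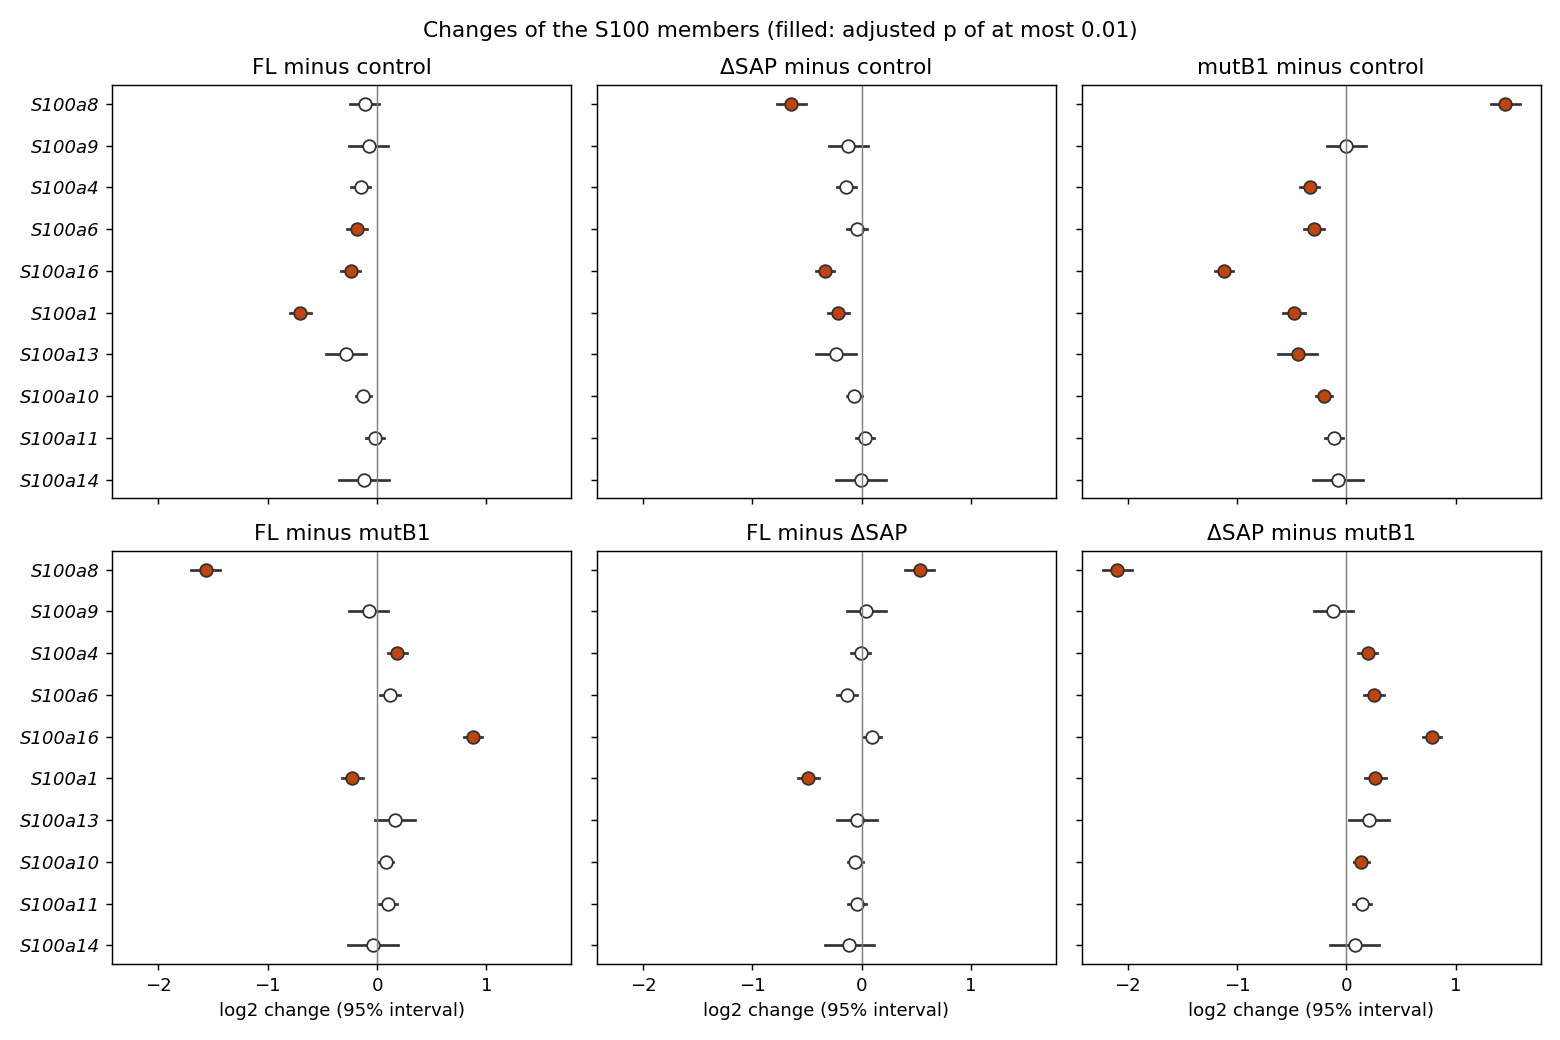
Log2 difference of each S100 gene (rows) in the 6 pairs of lines (panels, x axis as the first line minus the second), with bars as 95% intervals. Filled points are called at a limma adjusted p of at most 0.01. S100a8 and S100a16 reach beyond 1 in mutB1 against control, in opposite directions.

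Counted over the family, the 6 pairs differed in how many members were called. In FL against mutB1, 4 of the 10 were called, against 17.8% of all probe sets, with 2 higher and 2 lower. FL against ΔSAP gave 2 of 10 against 11.4%, with S100a8 higher and S100a1 lower. FL against control gave 3 of 10 against 20.0%, with 0 higher (9.61% of all probe sets) and 3 lower (10.4%). Many probe sets are dim, and among the 11341 genes with a mean over 6.35 the called share was 41.0% for FL against mutB1, 28.0% for FL against ΔSAP and 46.1% for FL against control. That share does not cover S100a8, S100a9 and S100a14, whose means lie under the limit. Of the other members, S100a1, S100a4 and S100a16 were called in FL against mutB1 and S100a1 in FL against ΔSAP. FL against control called S100a1, S100a6 and S100a16. These calls lie near or under the share of such genes, so the counts of these pairs are not read as an excess. With only the 6 arrays of a pair in the fit, 2 members were called in FL against mutB1 and 1 in FL against control, where further quantile normalization called 5. The FL against mutB1 count was 2 without FL array 1, mutB1 array 1 or mutB1 array 3.

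In mutB1 against control 7 of 10 were called, against 12.7% of all probe sets, and 1 was higher (5.83% of all probe sets) and 6 lower (6.89%). ΔSAP against control gave 3 of 10 against 14.8%, with 0 higher (6.96%) and 3 lower (7.83%). ΔSAP against mutB1 gave 6 of 10 against 15.1%, with 5 higher and 1 lower. Among the genes with a mean over 6.35 the called shares of these pairs were 31.3%, 34.7% and 34.7% in the same order. Of the members over that limit, S100a1 and S100a16 were called in ΔSAP against control, which does not exceed its share. All of them but S100a11 were called in mutB1 against control. S100a1, S100a4, S100a6, S100a10 and S100a16 were called in ΔSAP against mutB1. In these last pairs the calls exceed the share, which was not tested. With only the 6 arrays of the pair, 5 members were called in mutB1 against control. The ΔSAP against mutB1 count was 3 after median centring of the arrays and 2 with such a fit. The median member difference in mutB1 against control was -0.25, where the median of all probe sets was -0.00, and it was 0.17 against -0.03 in ΔSAP against mutB1. In FL against mutB1 the median was 0.09 against -0.00, in FL against ΔSAP -0.04 against 0.03, in FL against control -0.14 against -0.01, and in ΔSAP against control -0.13 against -0.03. These pairs share the control, FL, ΔSAP or mutB1 arrays, so the counts are not independent of each other.

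The study's own filters add a minimum fold of 2 and a minimum mean of 4 to the same adjusted p. Under them S100a8 alone passed in FL against mutB1 (1.60% of probe sets did) and in ΔSAP against mutB1 (1.42%), and S100a8 and S100a16 passed in mutB1 against control (1.21%). No member passed in FL against ΔSAP (0.503%), FL against control (1.83%) or ΔSAP against control (1.34%). The highest mean was in ΔSAP for S100a11, in mutB1 for S100a8 and in control for the other 8 members. The lowest mean was in FL for 2 members, in ΔSAP for 2 and in mutB1 for 6. These ranks include gaps that were not called. The highest line differed from the next by a call only for S100a1, S100a8 and S100a16. The lowest line did so only for S100a1, S100a4, S100a8 and S100a16. S100a4 was lowest in mutB1 with control highest, as were S100a6, S100a10, S100a13 and S100a16, whereas S100a8 was highest in mutB1 and S100a9 was called in no pair.

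Of the other S100 genes, 7 had a probe set of their own, and 1 of them was called in any pair. S100a7a, the mouse relative of psoriasin, averaged 7.84 ± 0.13 in FL, 7.19 ± 0.08 in ΔSAP, 7.22 ± 0.05 in mutB1 and 6.93 ± 0.10 in control (SD, n = 3 each). It was higher in FL than in control (0.90, SE 0.07, limma adjusted p = 6.97e-06), than in ΔSAP (0.65, SE 0.07, limma adjusted p = 0.000186) and than in mutB1 (0.62, SE 0.07, limma adjusted p = 0.000126), and FL was the highest line for no member. The others were S100a2, S100a3, S100a5, S100b, S100g and S100z, and 5 of the 7 were low in FL, ΔSAP and mutB1 and 4 in control. S100a3 came nearest, at -0.26 in ΔSAP against control (adjusted p = 0.0103).

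Receptors and binding partners of S100 proteins, 22 genes measured, were called in both directions. FL against mutB1 gave 5 higher and 6 lower, FL against ΔSAP 2 and 4, FL against control 3 and 8, mutB1 against control 6 and 2, ΔSAP against control 4 and 3, and ΔSAP against mutB1 4 and 4. In these pairs between 11.4% and 20.0% of all probe sets were called, and between 28.0% and 46.1% of the genes with a mean over 6.35, a share that most of these counts lie near. The median differences ran from -0.10 to 0.01, and those of all probe sets from -0.03 to 0.03. Of the receptors, Ager was not called in any pair and averaged 6.69 in FL, 6.60 in ΔSAP, 6.83 in mutB1 and 6.78 in control. Tlr4, which calprotectin binds, was lower in FL than in control (-0.38, SE 0.05, limma adjusted p = 0.000278) and than in ΔSAP (-0.30, limma adjusted p = 0.00261). The adhesion receptors that bind S100a8 and S100a9 differed in opposite directions between mutB1 and control. Alcam averaged 9.28 in FL, 10.31 in ΔSAP, 8.08 in mutB1 and 10.15 in control and was lower in mutB1 than in control (-2.07, SE 0.07, limma adjusted p = 9.15e-09), whereas Mcam averaged 8.42, 9.03, 9.42 and 8.83 in the same order and was higher in mutB1 (0.59, limma adjusted p = 2.48e-05). In FL against control both were lower, Alcam at -0.87 (limma adjusted p = 4.08e-06) and Mcam at -0.40 (limma adjusted p = 0.000215), and both were also lower in FL than in ΔSAP (-1.04 and -0.60).

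Partners inside the cell followed no single direction. Myh9, the non-muscle myosin heavy chain that S100a4 binds, was below its mutB1 level in FL (-0.32, SE 0.05, limma adjusted p = 0.000478) and higher in mutB1 than in control (0.25, limma adjusted p = 0.00365). Its dimmer probe set differed: it was called in mutB1 against control (0.78, adjusted p = 0.00347) and in FL against control (0.70, adjusted p = 0.00445), but not in FL against mutB1 (-0.08, adjusted p = 0.767). Ppfibp1, another S100a4 target, was likewise lower in FL than mutB1 (-0.21, limma adjusted p = 0.0048). Cacybp, the S100a6 partner, was above control in FL (0.56, SE 0.04, limma adjusted p = 1.47e-06), in ΔSAP (0.18, limma adjusted p = 0.00469) and in mutB1 (0.29, limma adjusted p = 0.000286), where S100a6 was lower than control in FL and mutB1. Among annexins, Anxa1 was lower than control in FL (-0.24) and ΔSAP (-0.16), Anxa11 was lower in mutB1 (-0.22, limma adjusted p = 0.000883), and Anxa6 was higher in mutB1 (0.40, limma adjusted p = 2.47e-05), with a second probe set that gave -0.07 (adjusted p = 0.73).

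The members lie in the RefSeq order of chromosome 3 among 91 other genes of the table, of which 52 were measured, and 45 of these were low in every line. In mutB1 against control, where 7 members and 12.7% of all probe sets were called, 0 of these 52 were called by limma and 5 had an unadjusted p under 0.05. FL against control gave 2 higher (9.61% of all probe sets) and 1 lower (10.4%), namely S100a7a (0.90), the cornified-envelope gene Sprr1a (0.48) and Sprr2g (-0.23). Of 10 keratinocyte differentiation genes of the region, 0 were called in mutB1 against control and 0 had an unadjusted p under 0.05, and 9 of 10 in FL, all 10 in ΔSAP, 9 in mutB1 and all 10 in control were low. Most genes between members thus gave low signal, at which a change could go unseen.

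**Figure D4:**
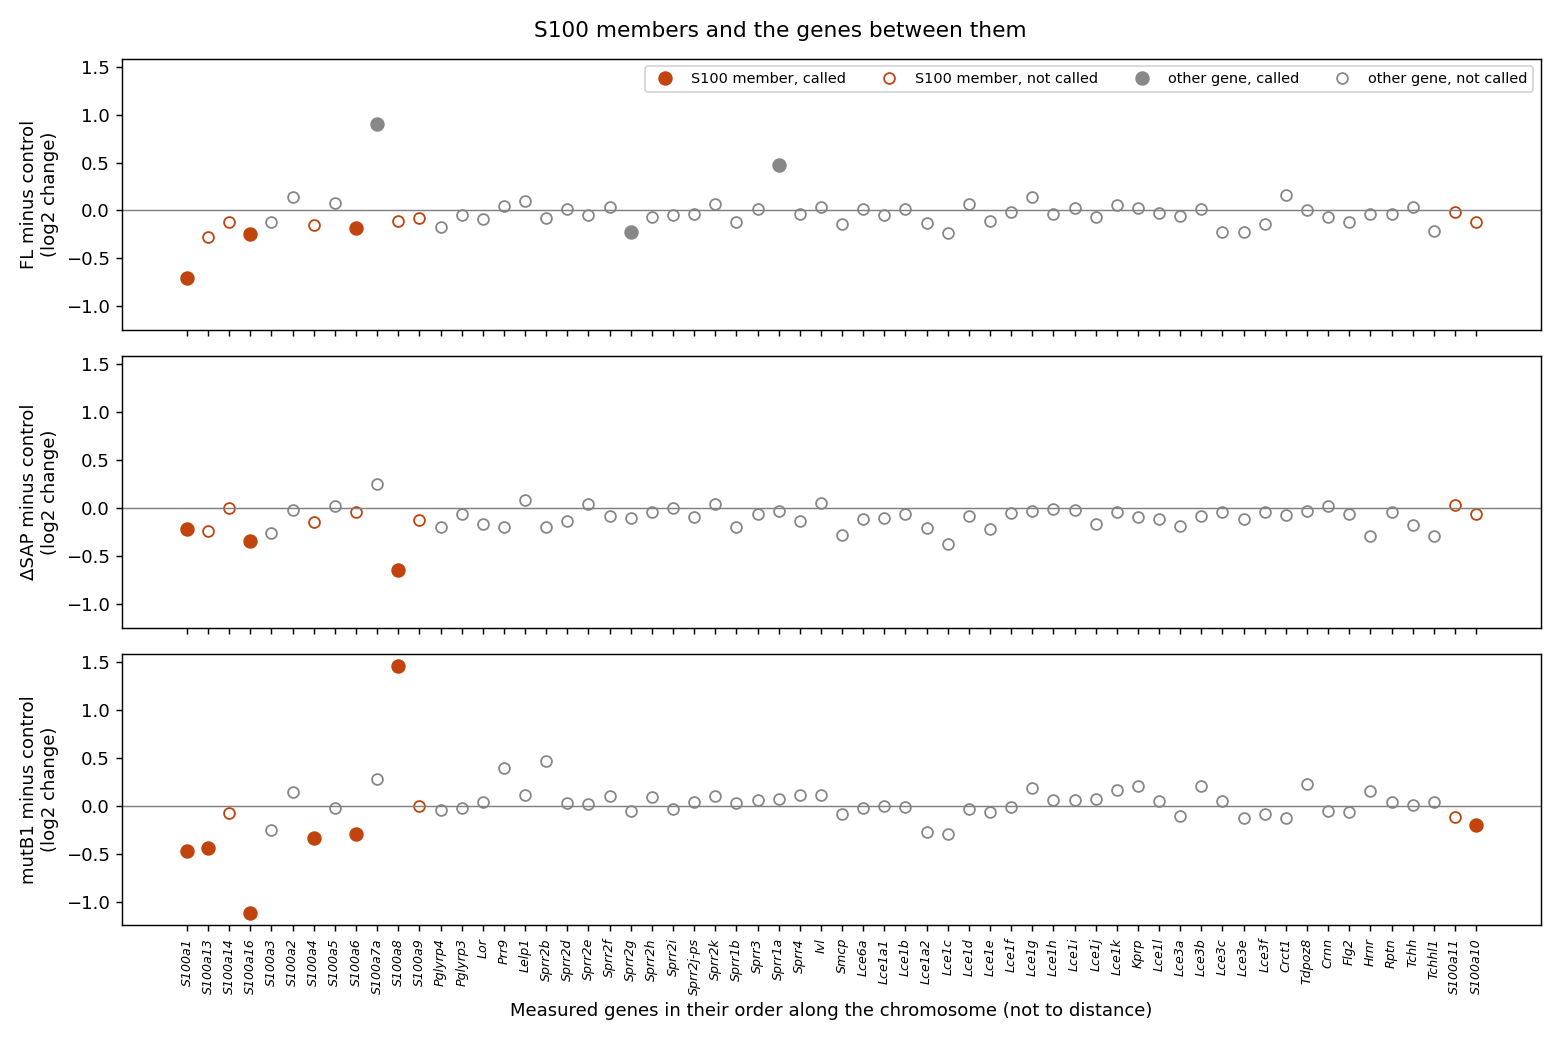
Log2 difference from control (y axis) in FL, ΔSAP and mutB1 (panels from the top) for measured genes in their order along chromosome 3 (x axis, rank and not distance). S100 members are orange and other genes grey, filled where called. In mutB1, S100a8 stands above 0 and 6 called members below it, with no other gene called.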

How the data were processed

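Each of the 12 arrays held RNA from 1 culture of 1 of 4 lines, and 100 ng of total RNA per culture was amplified and labelled, per the labels' protocols. The deposited log2 values per probe set are the authors' RMA output, which is background-corrected, quantile-normalized and summarized over probes, from the affy package of Bioconductor 2.4, per the series design text, under R 2.10.0, per the submitters' processing notes. The sources used here give no probe set definition, genome build or scan batch. Such values carry no detection call, and 3 arrays per line limit the precision.

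Of 34760 probe sets, the platform annotation gave 21640 a single symbol, 1321 several and 11799 none, and 21553 names were brought up to date by Entrez identifier from a RefSeq table of GRCm38.p6. No genes were named from probe sets with several symbols. The brightest probe set stood for a gene. limma 3.58.1 in R 4.3.3 fitted the 12 arrays with 4 line means (lmFit and eBayes), and p-values were adjusted by Benjamini-Hochberg across the whole table. The fold of 2 and mean of 4 of the authors' filters were counted beside the calls. 0 pairs of arrays were near-identical. Of 18 pairs of same-numbered arrays of different lines, 2 had a correlation of deviations over 0.1 (range -0.205 to 0.168). Pairs with different numbers ranged from -0.161 to 0.271. The same-numbered pairs thus did not stand out, but this check cannot exclude a pairing or a shared batch. Trp53, S100a7l2 and Flg had no single-symbol probe set and were not analysed here. Promoter sequences came from RefSeq. The members and lists were chosen with earlier results of these data known. The named genes were all members, the other S100 genes, receptors and partners, the genes between members on chromosome 3, marker genes, and the 5 genes most like S100a4, S100a8 and S100a9 by Pearson's r over the 12 arrays. The text does not name all of the genes of these lists. The fit was checked on simulated arrays. Alternatives were median centring, further quantile normalization, stricter means, eBayes trend and robust options, the 6 arrays of a pair alone, a replicate block, the mean of all probe sets of a gene and leaving out each array.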

Additional observations from a re-analysis of the deposited data

How the results depend on the processing

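No called S100 difference reversed under any alternative. Of 60 single-gene differences, the side of the threshold was kept in 49 when the 6 arrays of a pair were fitted alone, 59 with robust eBayes, 53 with the eBayes trend, 56 with further quantile normalization and 54 with median centring. The mean of a gene's probe sets kept it in all 60. That setting alters the values of S100a11 alone, so it is no check of the other members. Leaving out 1 array kept it in 676 of 720 refits, lost a call in 42 and gained one in 2. Where that array belonged to neither line of the pair, the difference itself could not move. A mean of at least 6 dropped S100a9 and S100a14 and kept it in 44 of 48.

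The number of members called moved most in the following cases. For FL against mutB1 (4) it was 2 with the 6 arrays alone, 1 with a minimum fold of 2 and 2 to 4 when 1 array was left out. For FL against ΔSAP (2) it was 0 with the fold. For FL against control (3) it was 5 with further quantile normalization, 5 with a mean of at least 6, 5 with the eBayes trend, 1 with the 6 arrays alone and 0 with the fold, and 2 to 4 when 1 array was left out. For mutB1 against control (7) it was 2 with the fold, 5 with the 6 arrays alone and 6 to 7 when 1 array was left out. For ΔSAP against control (3) it was 0 with the fold. For ΔSAP against mutB1 (6) it was 3 with median centring, 2 with the 6 arrays alone, 1 with the fold and 4 to 5 when 1 array was left out. The fold lowers these counts by construction, and the cause of the other moves was not tested.

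The numbers of called probe sets were 6194 for FL against mutB1, 3972 for FL against ΔSAP, 6939 for FL against control, 4422 for mutB1 against control, 5138 for ΔSAP against control and 5237 for ΔSAP against mutB1. With the fold of 2 they were 561, 177, 640, 419, 469 and 499 in the same order. With the 6 arrays alone they were 1715 for FL against ΔSAP, 2624 for mutB1 against control, 2948 for ΔSAP against control and 2915 for ΔSAP against mutB1.

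With the replicate number as a block, the members called were 3 for FL against mutB1, 2 for FL against ΔSAP, 2 for FL against control, 7 for mutB1 against control, 2 for ΔSAP against control and 5 for ΔSAP against mutB1. The block moved the called probe sets to 5431, 3132, 6207, 3748, 4403 and 4521 in the same order. Whether the numbers pair arrays was not settled, so calls lost there are given without a reading. Low signal and the 3 arrays per line limit what can be said of S100a9 and S100a14.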
